A study of Caenorhabditis elegans with 2 samples.

Results

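Occupancy of FLT-1, the BAZ2 family protein of the nematode Caenorhabditis elegans, was described at 4 genes, which are its own gene baz-2 (formerly flt-1), the methyltransferase gene set-6, and isw-1 and nurf-1, which encode subunits of ISWI chromatin remodellers. The 4 genes were chosen by name among 19973 nuclear protein-coding genes, and a peak was assigned to a gene when its summit lay between 2000 bp upstream of the annotated start and the annotated gene end. Chromatin from midembryos of strain RW12255, with an age label of 1 hour, was sonicated to 200 to 800 bp and precipitated with an anti-GFP antibody in 2 biological replicates. By its label the strain carries flt-1 fused to TY1, EGFP and 3xFLAG tags. The replicates form 1 group, the embryos came from egg bleaching and were used whole, and no input, untagged strain or other condition was analysed here. The strain label writes the tagged allele on chromosome I, whereas the annotation places baz-2 on chromosome III, and the position of the tag within the gene was not read from any file. The values are the signal that the authors' peak caller gave each peak, without read counts, so the depth behind them is unknown and they are used only to describe and rank peaks within a list.

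BAZ2 proteins carry a bromodomain, which binds acetylated histones, and a PHD finger, which in mammals binds the unmodified tail of histone H3, and in mammals they pair with an ISWI ATPase to form a nucleosome remodelling complex. In C. elegans, isw-1 encodes the ISWI ATPase, and nurf-1 encodes the large BPTF-like scaffold of the NURF complex, made as many isoforms that carry different parts of the protein. The set-6 gene encodes a SET-domain protein described as a putative H3K9 methyltransferase, and it is known together with baz-2 as a regulator of behavioural ageing.

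In the conservative list of peaks over both replicates, 2 of the 4 genes held a peak, baz-2 with 1 and nurf-1 with 2. The share over all nuclear protein-coding genes was 12.4%, with a 95% Wilson interval over genes from 11.9 to 12.8. In the other thresholded list over both replicates baz-2 held 3 peaks and the other 3 genes held none, where 13.2% of all genes held at least 1. In the own thresholded list of replicate 1 baz-2 held 1 peak and the others none, beside 7.85% of all genes. In that of replicate 2 none of the 4 genes held a peak, beside 6.22% of all genes. The ranked list over both replicates, which keeps weak and irreproducible peaks and has a minimum signal of 2.00, held 13 peaks for baz-2, 10 for isw-1, 37 for nurf-1 and 0 for set-6, and 71.6% of all genes held at least 1. The authors' thresholded lists hold peaks with an irreproducible discovery rate (IDR), the expected share of irreproducible peaks among those ranked at least as well, of at most 0.01. With 4 genes chosen by name, these counts are a description, and no test was made.

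**Figure D1:**
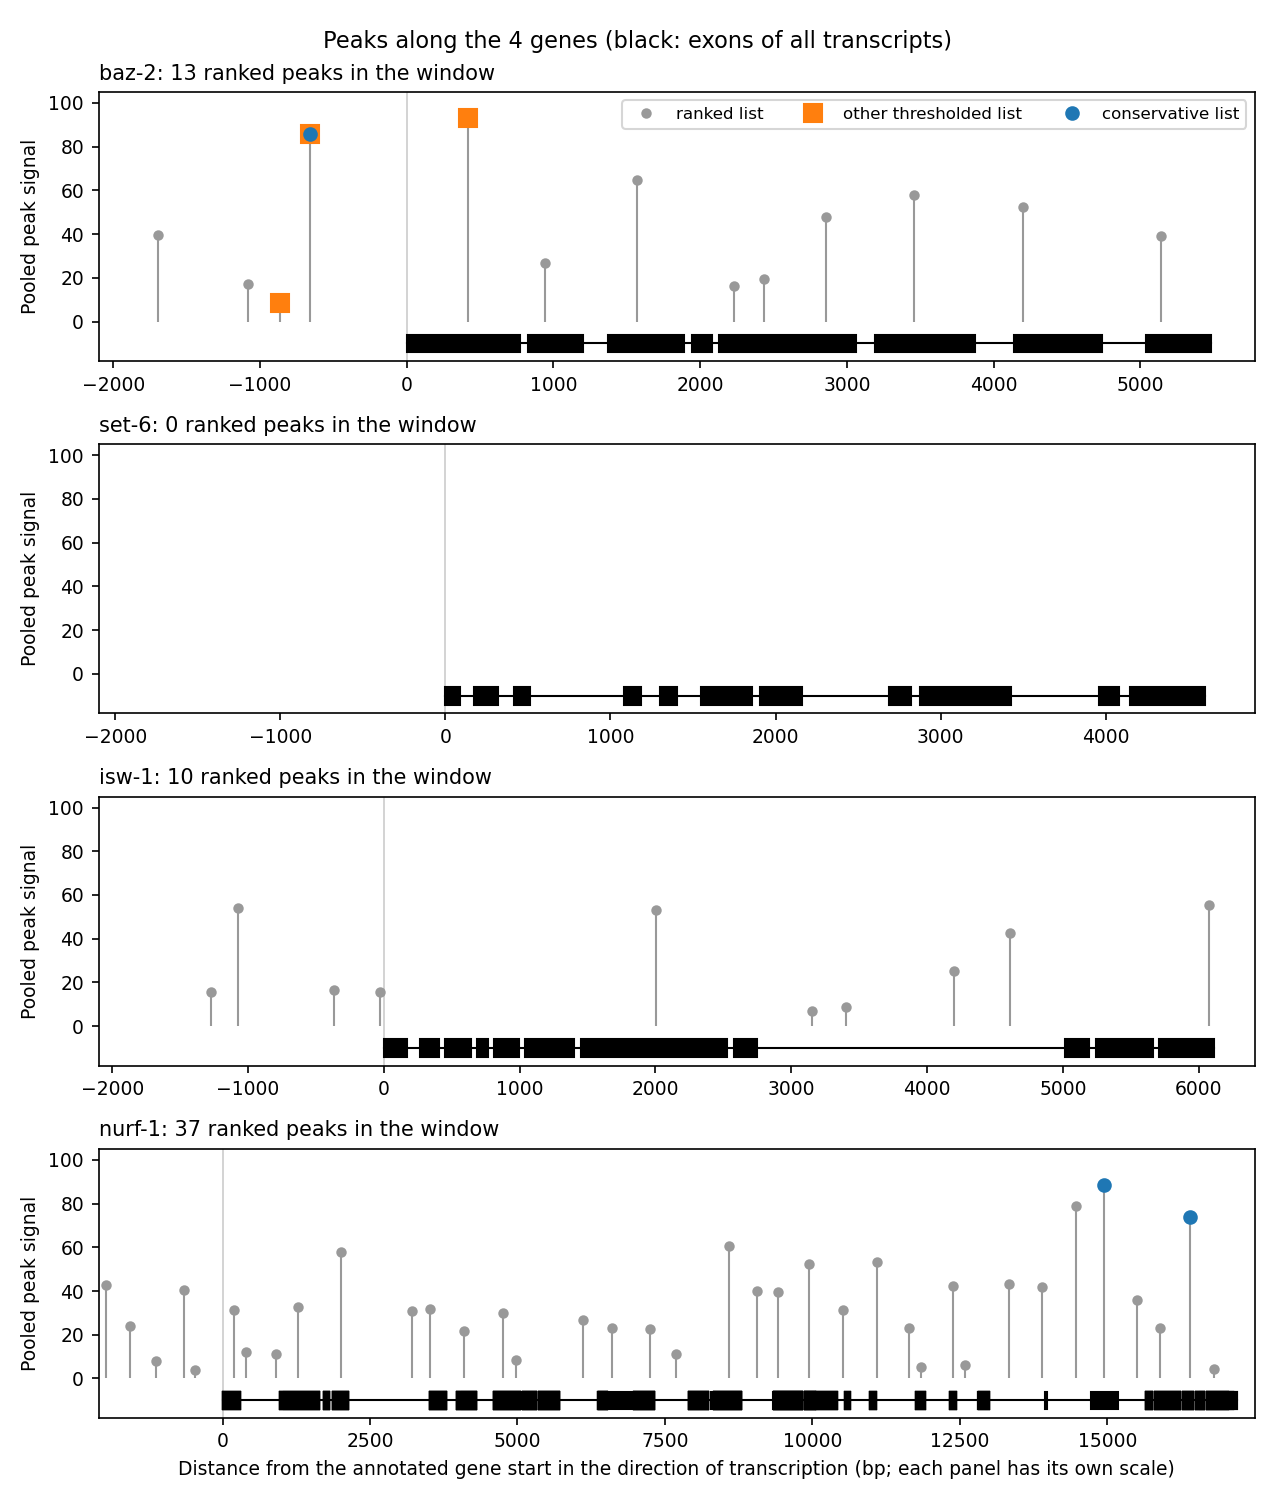
Peaks along baz-2, set-6, isw-1 and nurf-1, with the distance from the annotated gene start in bp on the x axis and the pooled peak signal on the y axis. Blue points mark conservative peaks and orange squares peaks of the other thresholded list: baz-2 has 1 conservative peak upstream of its start, nurf-1 has 2 near its 3′ end, and set-6 has none in any list.

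The conservative peak of baz-2 lay 660 bp upstream of its start, at chrIII:7656544-7656839. Its signal was 37.0 in replicate 1 and 42.7 in replicate 2, a mean of 39.8 ± 4.05 (SD, n = 2), and the pooled signal was 86.0. The listed values of the replicates lay close together at this site, with a log2 ratio of replicate 1 to replicate 2 of −0.21. Over all nuclear ranked peaks with an IDR of at most 0.01 the median ratio was 0.416 (SD 0.465 over peaks), and replicate 1 was higher at 82.4%. This site thus leaned towards replicate 2. Its IDR was 0.00653, and it was the 1 baz-2 peak present in both thresholded lists over the replicates. It passed the threshold in neither replicate alone: the matching peaks had an IDR of 0.201 in the own ranked list of replicate 1 and 0.0858 in that of replicate 2. In the conservative list of 2633 peaks it had rank 1652 by signal, which puts it below the median of 95.8, and in the ranked list of 96357 peaks it had rank 1933, percentile 98.0. The site lies between genes, 27 bp upstream of the start of ZK783.7, a divergent gene, so it cannot be assigned to baz-2 alone. The nearest tRNA gene was 14463 bp away and the nearest snoRNA gene 50170 bp away.

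The second strong baz-2 site lay within the gene, 420 bp downstream of the start in coding sequence, at chrIII:7655464-7655759. Its signal was 62.8 in replicate 1 and 20.2 in replicate 2, a mean of 41.5 ± 30.1 (SD, n = 2), with a pooled signal of 93.2. Replicate 1 was far higher here, with a log2 ratio of 1.64. The own ranked list of replicate 2 held no peak at this site, so its value could not be checked against that list. The pooled signal was the highest of any baz-2 peak and had rank 1607 in the ranked list, but its IDR there was 0.0724 and it was not in the conservative list. It was in the other thresholded list at rank 1415 of 2849, and a peak 382 bp downstream of the start was in the own thresholded list of replicate 1 at rank 1130 of 1543. The sequences under these 2 peaks are shown because they are the sites at the tagged protein's own gene. They are from the RefSeq genome WBcel235, which has the same coordinates as ce11, on the plus strand, opposite to baz-2, and the 21 capitals mark the summit and 10 bases on each side.
baz-2 −660: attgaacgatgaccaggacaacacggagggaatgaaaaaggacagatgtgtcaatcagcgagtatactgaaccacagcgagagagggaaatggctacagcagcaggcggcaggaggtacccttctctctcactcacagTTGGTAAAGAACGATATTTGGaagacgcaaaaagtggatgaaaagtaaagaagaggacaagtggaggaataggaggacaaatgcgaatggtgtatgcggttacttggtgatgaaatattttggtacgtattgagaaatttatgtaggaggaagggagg
baz-2 +420: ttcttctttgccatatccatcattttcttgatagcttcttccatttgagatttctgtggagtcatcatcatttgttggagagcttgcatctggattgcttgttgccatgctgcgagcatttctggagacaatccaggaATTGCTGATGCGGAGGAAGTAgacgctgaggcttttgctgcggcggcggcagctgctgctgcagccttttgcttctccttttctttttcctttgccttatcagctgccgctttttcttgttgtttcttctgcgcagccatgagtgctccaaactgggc

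Both baz-2 sequences were rich in G and C for this genome, 44.9% at the upstream site and 48.0% at the internal site, beside 35.4% in the nuclear genome. The median over nuclear conservative peaks was 44.9%, with quartiles of 39.2 and 49.3, so the baz-2 sites had a composition usual for conservative peaks.

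Another baz-2 peak of the other thresholded list lay 861 bp upstream of the start, at chrIII:7656745-7657040, in an intron of ZK783.7. Its pooled signal was 8.46, with 9.34 in replicate 1 and 42.7 in replicate 2. The replicate 2 value is that of the same replicate 2 peak that was matched to the site at −660 bp, so the entries are not independent sites. Its rank in that list was 2820 of 2849, and its IDR in the ranked list behind the conservative list was 0.622. Its G and C content was 31.4%, at percentile 3.83 of nuclear conservative peaks. Of 2680 genes with a window length within 1.25-fold of that of baz-2, 1.01% held at least 3 peaks in the other thresholded list, and baz-2 reached that number by this repeated entry.

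The remaining 10 baz-2 peaks were in both ranked lists over the replicates and in no thresholded list. The strongest of them, at +1571 bp in coding sequence, had a pooled signal of 64.8 with 26.2 in replicate 1 and 29.8 in replicate 2, an IDR of 0.0851 and rank 4338. It was followed by +3457 bp with a pooled signal of 58.0 and replicate values of 39.6 and 9.95, and by +4201 bp with 52.4 and replicate values of 43.6 and 12.2. At these 2 sites replicate 1 was the higher by a log2 ratio of 1.99 and 1.83. The own ranked list of replicate 2 held no peak at either site, so its values there could not be checked against that list. The site at +2858 bp had a pooled signal of 48.0, with 11.8 in replicate 1 and 20.3 in replicate 2, and that replicate 2 value could not be checked either. The site at −1697 bp had 39.7, with replicate values of 27.4 and 12.6. The last site of the gene, at +5139 bp and 340 bp before the annotated end, had 39.2, with 10.8 in replicate 1 and 30.2 in replicate 2. Here replicate 2 was the higher. The pooled signals at +941, −1081, +2433 and +2228 bp were between 16.2 and 26.8, and the sites at +2433 and +2228 bp carry the same replicate 2 peak.

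Of the 13 ranked summits at baz-2, 9 lay in coding exons, which make up 55.7% of the window, while 4 lay upstream. Only 3 of the 13 had an IDR of at most 0.1. The own ranked list of replicate 1 held 16 peaks in the baz-2 window, whereas that of replicate 2 held 5, of which those at +1647 and +5115 bp were inside the gene. No summit of the 13 lay in an intron of baz-2, and introns make up 13.6% of the window. Replicate 1 was higher at 5 of the 13 peaks, with a median log2 ratio of −0.21, whereas it was higher at 65.1% of all nuclear ranked peaks, with a median of 0.38. In pooled signal 9 of the 13 were at or above the list median of 25.1, and 5 were in the top 10% of the list. The strongest baz-2 peak was at percentile 88.6 among the 2680 genes of like window length, with the 450 without a ranked peak counted as 0. The median over those with a ranked peak was 54.4. Among all 2680 genes 18.7% held a conservative peak, and 14.5% held at least as many ranked peaks as baz-2.

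Past the annotated end of baz-2, which the gene windows do not cover, the nearest ranked peak had its summit 347 bp downstream. Its signal was 34.1 in replicate 1 and 37.2 in replicate 2, with a pooled signal of 64.4 and an IDR of 0.0131, just outside the authors' threshold of 0.01, and it was in none of the thresholded lists. Further ranked peaks at 925, 1387 and 1903 bp past the end had pooled signals of 27.5, 39.6 and 26.9. The labels write the tags after flt-1 in the fusion name, and whether the tag bears on peaks near this end was not tested.

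**Figure D2:**
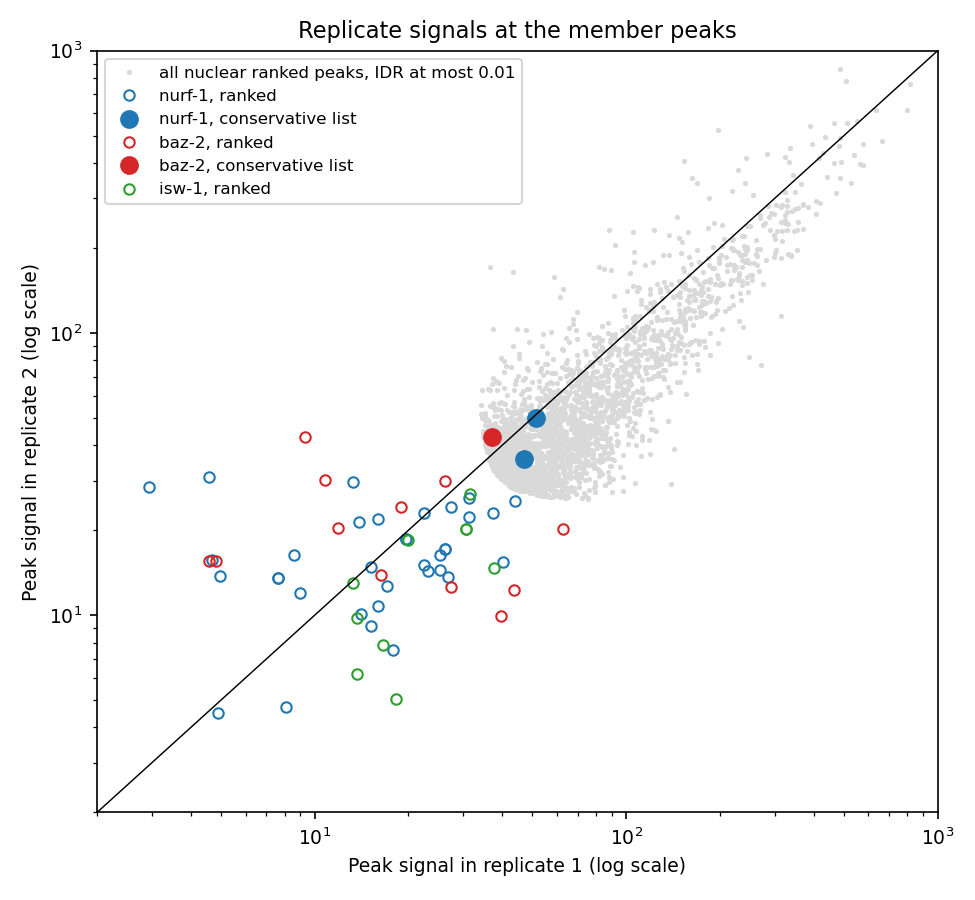
Signal of each ranked peak in replicate 1 (x axis) and replicate 2 (y axis), both on log scales, with baz-2 in red, isw-1 in green, nurf-1 in blue, and all nuclear peaks with an IDR of at most 0.01 in grey; the line marks equal values. The 3 filled conservative peaks lie below the grey median of 58.7 in replicate 1. In replicate 2 they run from 35.8 to 49.8, beside a grey median of 43.0. Replicate 1 was the higher at 10 of 10 isw-1 peaks but at 5 of 13 baz-2 peaks, beside 65.1% of all nuclear ranked peaks. Some isw-1 and baz-2 entries repeat a replicate value of another entry, so they are not all independent sites. Several of their replicate 2 values are not in the own ranked list of replicate 2 and could not be checked against it.

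At isw-1, the gene of the ISWI ATPase, no peak was in any thresholded list. Its strongest ranked peak lay at the opposite end of the gene from the start, at +6076 bp, chrIII:6703876-6704171, in the 3′ UTR and 36 bp before the annotated end. The signal there was 31.6 in replicate 1 and 26.9 in replicate 2, a mean of 29.3 ± 3.29 (SD, n = 2), with a pooled signal of 55.2, an IDR of 0.0385 and rank 7524. It was the 1 isw-1 peak with an IDR of at most 0.05 in this list, and its IDR in the other ranked list was 0.110. The 3′ end of rbf-1, on the opposite strand, overlaps 123 bp of this peak, so it cannot be assigned to isw-1 alone.

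By pooled signal, the sites at −1074 bp and +2005 bp were also in the top 10% of the ranked list behind the conservative list, but the other ranked list over both replicates held neither of them and no isw-1 peak upstream of +3150 bp. At −1074 bp the signal was 30.5 in replicate 1 and 20.2 in replicate 2, with 53.8 pooled and an IDR of 0.107. A weaker entry at −1276 bp, with 15.6 pooled, carries the same replicate peaks. At +2005 bp, in coding sequence, the signal was 37.5 in replicate 1 and 14.7 in replicate 2, with 53.3 pooled and an IDR of 0.335. At −29 bp, by the start of isw-1, the listed signal was 13.3 in replicate 1 and 13.0 in replicate 2, with a pooled value of 15.7, below the list median. At −367 bp the pooled signal was 16.6, with 18.3 in replicate 1 and 5.06 in replicate 2. The own ranked list of replicate 2 held no peak at +2005, −29 or −367 bp, so its values there could not be checked against that list.

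Within the gene, 3 of the isw-1 summits lay in coding exons of F37A4.6, a gene nested in an isw-1 intron, with pooled signals of 25.2 at +4199 bp, 8.96 at +3401 bp and 6.85 at +3150 bp. A further intron site at +4610 bp had 42.4 pooled, with 19.9 in replicate 1 and 18.4 in replicate 2. Replicate 1 was the higher at all 10 isw-1 peaks, with a median log2 ratio of 0.60, but several of the replicate 2 values are not in the own ranked list of replicate 2. The entries at +3401 and +3150 bp carry the same replicate 1 value of 13.7, so the 10 are not all independent sites. The strongest isw-1 peak was at percentile 58.3 among 2307 genes of like window length, with the 346 without a ranked peak counted below it. The median over those with a ranked peak was 54.8, just below the isw-1 value of 55.25. Of all 2307 genes, 50.4% held at least as many ranked peaks as isw-1. The number of isw-1 peaks depended on the list, with 10 here, 6 in the other ranked list, 10 in the own ranked list of replicate 1 and 4 in that of replicate 2.

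At nurf-1, the NURF scaffold gene, both conservative peaks lay in coding exons close to the 3′ end of the longest transcripts and far from the annotated gene start. The first, at +14949 bp, chrII:14405514-14405809, had a signal of 51.4 in replicate 1 and 49.8 in replicate 2, a mean of 50.6 ± 1.14 (SD, n = 2), and 88.4 pooled. The replicates were nearly equal, with a log2 ratio of 0.05, and the IDR of 0.00109 was the lowest in the 4 windows in the ranked list behind the conservative list. In the other ranked list the IDR of this peak was 0.089, and the matching peaks in the own ranked lists had 0.089 in replicate 1 and 0.781 in replicate 2. It had rank 1556 in the conservative list and rank 1800, percentile 98.2, in the ranked list. The second, at +16394 bp, chrII:14406959-14407254, had 47.1 in replicate 1 and 35.8 in replicate 2, a mean of 41.5 ± 7.95 (SD, n = 2), and 73.7 pooled. Its IDR was 0.00275, beside 0.0109 in the other ranked list and 0.179 and 0.728 in the own lists of replicates 1 and 2, with rank 2189 in the conservative list and rank 2907 in the ranked list. Neither peak was in the other thresholded list or in the own thresholded list of a replicate, and both were below the median signal of the conservative list.

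The nurf-1 gene has 23 annotated transcripts with 16 distinct starts, several of them close to these peaks. The first summit lay 230 bp downstream of the start of transcript F26H11.2f.1, and the second 169 bp upstream of the start of F26H11.2j.1, the shortest annotated transcript. The sequences under both peaks are shown because both lie in coding sequence at the 3′ end, next to the starts of short transcripts. They are on the plus strand of WBcel235, in the direction of nurf-1, with the 21 capitals as above. In the first, the 31 bases that are annotated as UTR were left out, so that it covers chrII:14405545-14405809.
nurf-1 +14949: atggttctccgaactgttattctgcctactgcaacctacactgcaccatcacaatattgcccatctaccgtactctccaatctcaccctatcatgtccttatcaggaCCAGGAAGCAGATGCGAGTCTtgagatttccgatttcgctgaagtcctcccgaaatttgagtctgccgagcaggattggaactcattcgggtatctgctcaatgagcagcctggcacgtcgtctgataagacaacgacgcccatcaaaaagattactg
nurf-1 +16394: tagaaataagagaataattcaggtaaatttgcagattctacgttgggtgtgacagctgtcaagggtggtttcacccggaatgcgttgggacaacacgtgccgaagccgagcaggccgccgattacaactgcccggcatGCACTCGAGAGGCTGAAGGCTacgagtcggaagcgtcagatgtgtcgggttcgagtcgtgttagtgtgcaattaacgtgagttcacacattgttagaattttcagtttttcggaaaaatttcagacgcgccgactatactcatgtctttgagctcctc

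Next in strength at nurf-1 was an intron peak at +14472 bp, 247 bp upstream of the start of F26H11.2f.1, with 44.0 in replicate 1 and 25.4 in replicate 2, a pooled signal of 78.8 and an IDR of 0.0173, which was 0.356 in the other ranked list. The peak at +8578 bp, 300 bp downstream of the start of F26H11.2r.2, had 37.3 in replicate 1 and 23.1 in replicate 2, a pooled signal of 60.7 and an IDR of 0.0402. That at +2010 bp, 142 bp downstream of the start of F26H11.2q.4, had 31.3 and 25.9, a pooled signal of 58.0 and an IDR of 0.0446. With the conservative peaks, these were the 5 nurf-1 peaks with an IDR of at most 0.05 in the ranked list behind the conservative list. At +11089 bp the pooled signal was 53.5, with 31.2 in replicate 1 and 22.2 in replicate 2. At +9945 bp it was 52.5, but with 13.3 in replicate 1 and 29.7 in replicate 2. The replicates differed most at +9417 bp, with 2.95 in replicate 1 and 28.4 in replicate 2, for a pooled signal of 39.6.

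The annotated 5′ end of nurf-1 had weaker peaks than its 3′ end. At +190 bp the signal was 25.2 in replicate 1 and 16.4 in replicate 2, with 31.3 pooled, and the own ranked list of replicate 2 held no peak there. Upstream, a peak at −661 bp lay in a coding exon of kbp-3, a kinetochore protein gene, and had 26.3 in replicate 1 and 17.1 in replicate 2, with 40.6 pooled. An entry at −459 bp, with 3.80 pooled, carries the same replicate peaks. With the gene body divided into 3 equal stretches, the median pooled signal was 30.3 over 10 peaks in the first, 35.5 over 10 in the middle and 38.8 over 12 in the last, and the highest signal was 58.0, 60.7 and 88.4 in the same order. The medians differ by less than the spread among peaks of a stretch, where the lowest value in the last stretch was 4.52 at +16807 bp, and it is the highest peaks that lie at the 3′ end.

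Of the 32 summits in the nurf-1 gene body, 13 (40.6%) lay within 250 bp of an annotated transcript start, and 30.7% of the bases of the gene lie that close to one. The median pooled signal was 39.6 for those summits and 29.9 for the others. Of all 37 ranked summits, 17 lay in coding exons, which make up 36.8% of the window, 14 in introns, which make up 47.0%, 5 upstream and 1 in a UTR. Replicate 1 was the higher at 25 of the 37, with a median log2 ratio of 0.27, and 4 of the entries repeat a replicate 1 value and 4 a replicate 2 value of another entry. The share of all genes with a conservative peak went from 7.75% for windows of 3000 to 4000 bp to 43.0% for those over 20000 bp. Of 377 genes with windows of like length, 31.8% held a conservative peak and 10.6% held at least 2, and of the 54 such genes on the same chromosome 20.4% held at least 2. As many ranked peaks as in nurf-1 were held by 7.96% of the 377 genes.

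Just past the annotated end of nurf-1 stood a stronger site than any in its window. Its summit was 131 bp past the end, at chrII:14407894-14408189, and 18 bp of the peak lie inside the gene. The signal was 91.2 in replicate 1 and 57.2 in replicate 2, with 149.4 pooled, an IDR of 0.000241 and rank 706 in the ranked list. It was in the conservative list and, unlike the peaks within nurf-1, also in the other thresholded list, and it overlapped own thresholded peaks of both replicates. It lies 570 bp upstream of the start of F26H11.4, the next gene on the same strand. The strongest reproducible signal around nurf-1 was therefore outside the gene, between nurf-1 and its neighbour.

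No peak was listed for set-6, on the X chromosome, in any of the 4 thresholded or 4 ranked lists. The gene lies in a stretch of 25.8 kb between neighbouring ranked summits, at chrX:11966658-11992409. The stretch also holds C49F5.3, the nuclear hormone receptor gene nhr-167, C49F5.5 and C49F5.6. The last peak before it, within sams-1, an S-adenosylmethionine synthetase gene, had a pooled signal of 37.1, and the first peak after it had 21.2. In the other ranked list the stretch was 26.3 kb, and in the own ranked lists of replicates 1 and 2 it was 25.8 and 24.2 kb. The replicates were thus alike in listing nothing at set-6.

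Among gaps between ranked summits on X, 74 of 14843 (0.499%) were at least as long as this stretch, and the median gap was 633 bp. Long gaps cover a larger share of X than their share of the gaps, and the share of X within them was not computed. Genes without a ranked peak were not rare: they made up 31.0% of genes on X and 28.0% on the autosomes, and 666 of the 3498 genes with windows of like length had none. The set-6 window has a G and C content of 31.4%, at percentile 4.45 of all gene windows, while those of baz-2, isw-1 and nurf-1 are at 37.4%. Of 1629 genes within 1 percentage point of set-6 in composition, 49.9% held no ranked peak, and of the 28 of these that are also on X and of like length, 17 (60.7%) held none. An unlisted region is one where the authors' caller reported no peak, and how far low base composition limits the reads there was not tested.

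**Figure D3:**
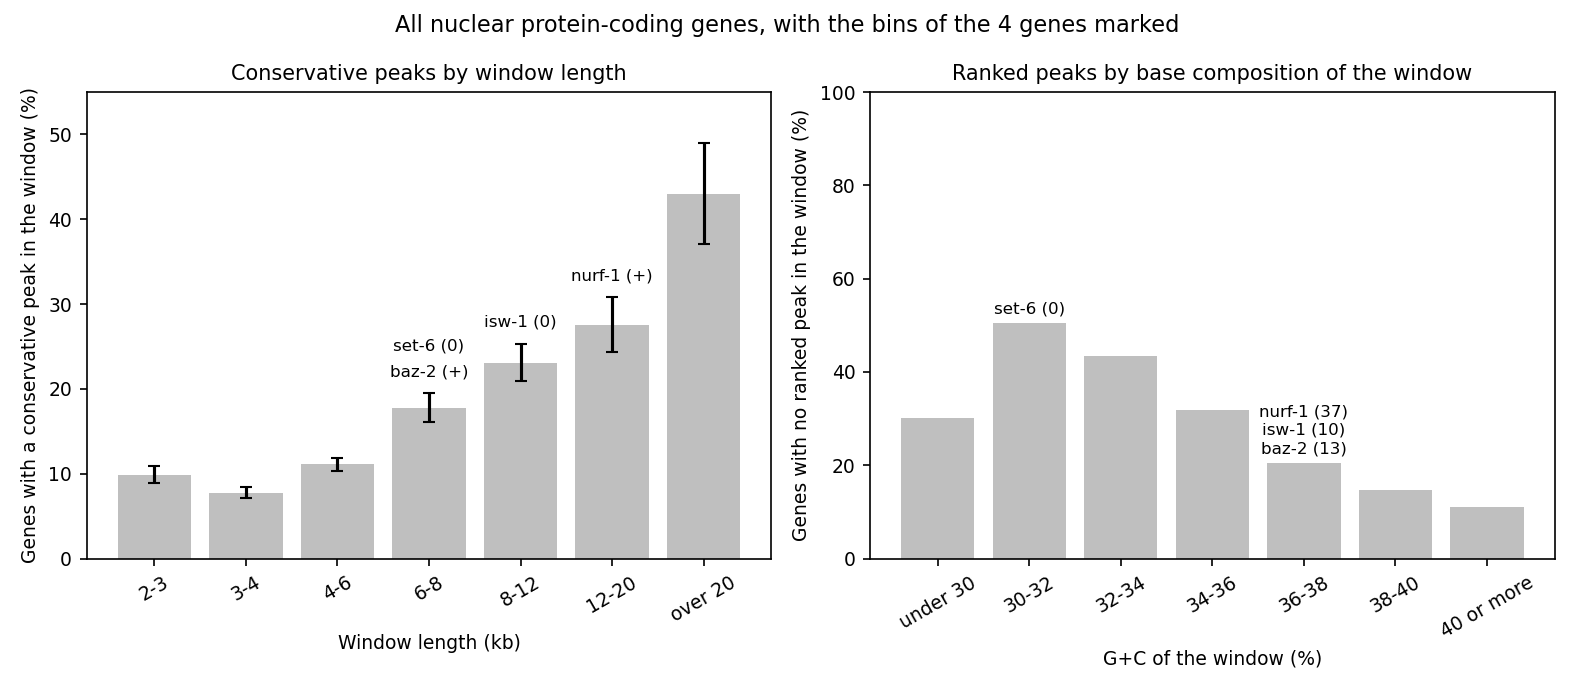
Share of all nuclear protein-coding genes with a conservative peak by window length in kb (left, bars with 95% Wilson intervals over genes), and share without any ranked peak by the G and C content of the window in percent (right), with the bins of the 4 genes marked (left, plus or 0 for a conservative peak; right, their number of ranked peaks). A conservative peak was held by 17.7% of genes in the bin of baz-2 and set-6, 23.0% in that of isw-1 and 27.5% in that of nurf-1, and 50.5% of genes in the bin of set-6 had no ranked peak.

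Among other genes of the pathway, taken from 4 lists of chromatin genes, conservative peaks were found in every list, most of them upstream of starts. The share over all genes, to be read beside each count, was 12.4%. It was 17.7% for windows of 6000 to 8000 bp and 23.0% for windows of 8000 to 12000 bp. For windows of 12000 to 20000 bp it was 27.5%, and for longer ones 43.0%. In the ISWI and NURF list 3 of 5 genes held one, namely nurf-1 and the RbAp46/48-like histone chaperone genes lin-53 and rba-1, and isw-1 and pyp-1, the gene of the NURF pyrophosphatase-like subunit, held none. The neighbours lin-53 and rba-1 share a single peak, 232 bp upstream of lin-53 and 1885 bp upstream of rba-1, with 83.6 in replicate 1 and 70.4 in replicate 2 and a pooled signal of 147.1. In this list the median of the strongest ranked signals was 88.4, beside 39.8 over all genes, where a gene without a ranked peak counts as 0. The shared peak enters this median for both lin-53 and rba-1, and the value over all genes is not matched for window length.

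Of 6 genes of other remodelling ATPases 3 held a conservative peak, beside 12.4% of all genes. Their windows are long, from 7139 to 32156 bp, where the share over all genes was higher, as given above. The peak 1068 bp upstream of chd-3 had 44.9 in replicate 1 and 40.5 in replicate 2, that 873 bp upstream of chd-7 had 52.4 and 32.5, and that 571 bp upstream of chd-1 had 49.5 and 33.1. These 3 peaks were of about the strength of those at baz-2 and nurf-1, with pooled signals between 74.6 and 92.6. The genes let-418, which like these 3 encodes a CHD-type ATPase, swsn-4 and ssl-1 held none, and the median of the strongest ranked signals in this list was 75.7.

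Of 13 genes of H3K9 methylation and its readers 4 held a conservative peak, beside 12.4% of all genes, and set-6 was the 1 gene of the list without a ranked peak. The highest was 1643 bp upstream of cec-4, the gene of a chromodomain protein that anchors methylated chromatin at the nuclear periphery, with 261.8 in replicate 1 and 213.0 in replicate 2. The peak 77 bp upstream of set-25, an H3K9 methyltransferase gene, had 77.0 and 53.0. The peak 14 bp upstream of cec-3, a chromodomain reader gene, had 59.3 and 36.1, and that 37 bp upstream of arle-14, whose product works with the methyltransferase MET-2, had 37.5 and 34.1. The median of the strongest ranked signals, 54.1, was the lowest of the 4 lists.

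Of 11 bromodomain genes 10 were matched in the annotation, and 5 of these held a conservative peak, baz-2 among them, beside 12.4% of all genes. Apart from that of swsn-9, of 5110 bp, their windows run from 6890 to 28173 bp, where the share over all genes was higher, as given above. The peak 893 bp upstream of cbp-1, a histone acetyltransferase gene, had the highest signal, with 256.9 in replicate 1 and 176.5 in replicate 2, and the peaks at bet-2 (−480 bp) and swsn-9 (+55 bp) had pooled signals of 103.3 and 103.1. The peak of taf-1, a TFIID subunit gene, was at +24407 bp in coding sequence, with 39.0 and 41.1, which like those of nurf-1 is far from the start. The median of the strongest ranked signals was 78.5. Genes of the lists differ in length and neighbours share peaks, and the counts of the lists were not tested.

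**Figure D4:**
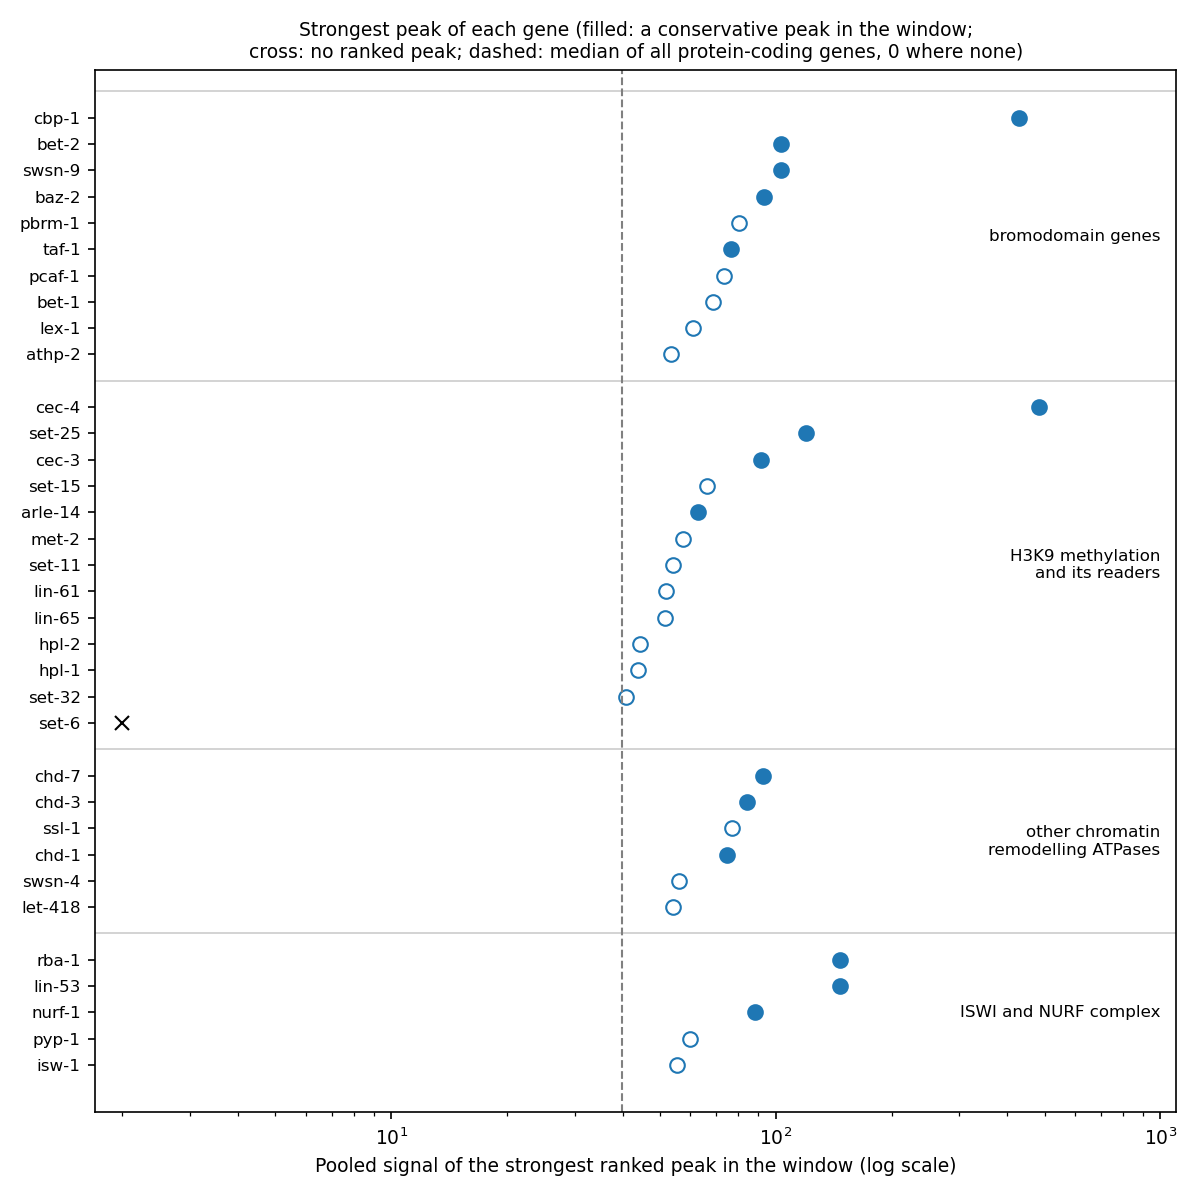
Pooled signal of the strongest ranked peak (x axis, log scale) of each gene in the 4 lists, with filled points for genes that hold a conservative peak, a cross for the gene without a ranked peak, and a dashed line at the median of all protein-coding genes. Every gene of the lists other than set-6 lies above the median of 39.8, with cec-4 and cbp-1 highest, at 482.4 and 429.3. This median counts a gene without a ranked peak as 0 and is not matched for window length. Over genes that hold a ranked peak and have windows like those of the 4 genes, the medians ran from 52.71 (like set-6) to 64.35 (like nurf-1).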

How the data were processed

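Anti-GFP ChIP-seq of 2 biological replicates was analysed from peak lists. The deposited signal of each peak was set by the authors' peak caller. The scaling of this signal, the aligner and the caller were not given in any source used here. The score deposited by the authors follows the IDR, and the ranked lists deposited by the authors also give −log10 of the global IDR. All thresholded peaks were at 2.00 or more on that scale. The ranked list over both replicates holds a pooled signal and 2 replicate columns, which were assigned by shared intervals. Of its 96357 peaks, 74914 had a replicate 1 interval that is in the own ranked list of replicate 1, with identical values for 74913. For replicate 2 this held for 41210 of the 96357, with identical values for all 41210. The other intervals, which are most of those of replicate 2, are not in the replicate's own ranked list and could not be checked in this way.

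Per the labels, coordinates are in ce11. They were read against Ensembl release 115 gene models and the RefSeq genome of WBcel235, the same assembly, whose chromosome lengths no peak exceeded. Coordinates are 1-based, and mitochondrial peaks were left out. Counting of summits in windows was tested on simulated data. No test across genes was made, and the Wilson intervals cover counting over genes, which share peaks with neighbours.

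The 4 genes, lists and windows were chosen with earlier results of these data known. Comparisons by base composition, by transcript start and past the gene ends were added after values were seen. Named genes were the 4 genes, listed genes with a conservative peak, and neighbours that share a peak. Tables were handled with pandas 2.3.3 and NumPy 2.4.6 under Python 3.11.15, intervals came from SciPy 1.17.1, and plots were drawn with matplotlib 3.10.9. Other windows, lists, IDR thresholds and single replicates were tried as alternatives.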

Additional observations from a re-analysis of the deposited data

How the results depend on the processing

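The 2 genes with a conservative peak were also 2 with a downstream margin and with any overlap of the peak, where nurf-1 gained the peak past its end. The count was 1 with a promoter window (baz-2), 1 over gene bodies only (nurf-1), 1 in the other thresholded list (baz-2), 3 at an IDR of at most 0.05 (with isw-1) and 0 at an IDR of at most 0.0001. In the own lists of single replicates it was 0 to 1. The share of all genes, 12.4%, was 6.82% with the promoter window, 4.30% over gene bodies, 20.8% and 2.31% at the looser and stricter IDR, and 6.22% to 7.85% without a replicate. The strongest signal in the promoter window was 16.6 for isw-1 and 40.6 for nurf-1, and with the downstream margin nurf-1 reached 149.4. Without a replicate the percentile of the strongest peak ran from 81.4 to 98.6 for baz-2, from 88.8 to 92.8 for isw-1 and from 97.8 to 98.8 for nurf-1. The causes were not tested. Set-6 held 0 peaks under every alternative run. No paired analysis was possible because there was 1 group. Depth is unknown, so a peak missing from a list cannot be told apart from one too weak to be called.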
